A study of Mus musculus with 30 samples.

Results

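The fusion and fission genes described here are 7 genes whose products shape the mitochondrial network, namely Mfn1, Mfn2, Opa1, Dnm1l, Fis1, Mff and Pink1. They were taken by name from 17097 genes measured on 30 mouse expression arrays. Together they were covered by 17 probe sets annotated to these symbols alone, and each gene was represented by its probe set of the highest mean over the 30 arrays. All 7 had such a probe set, and no filter on low values was applied. The arrays came from ClpP KO mice and wild-type littermates on a C57BL/6 background, with RNA of testis, liver, skeletal muscle, brain and heart. Each genotype had 3 arrays in each tissue, which made 10 groups. ClpP carries the active sites of the ClpXP protease of the mitochondrial matrix, and the labels name no other allele and no treatment. Age and sex are not given in the sources used here. Nothing in the labels tells whether replicates are separate animals, or whether different animals gave the 5 tissues, so p-values measure the spread between these samples only.

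Mitochondria fuse and divide continuously. The mitofusins Mfn1 and Mfn2 are GTPases that tether and fuse outer membranes, and Opa1 is the GTPase that fuses inner membranes and keeps the cristae in shape. Dnm1l, also called Drp1, is a GTPase of the cytosol that constricts mitochondria after it is recruited by outer membrane proteins such as Mff and Fis1. Pink1 is a kinase that gathers on depolarized mitochondria and marks them for removal by autophagy. In spermatids the mitochondria are rearranged into a sheath around the sperm midpiece, and in muscle and heart they are packed between the contractile fibrils.

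The stretches of DNA before the RefSeq starts (GRCm38.p6) of Mfn2, Opa1, Dnm1l and Pink1 are shown because these 4 genes had the largest knockout differences in testis. Each line gives the 250 bases before a start, 5′ to 3′ on the gene's own strand, with matches to searched motifs in capitals. The intervals are chr4:147904910-147905159 for Mfn2 on the minus strand, chr16:29579084-29579333 for Opa1 on the plus strand, chr16:16359032-16359281 for Dnm1l on the minus strand and chr4:138326297-138326546 for Pink1 on the minus strand.
Mfn2: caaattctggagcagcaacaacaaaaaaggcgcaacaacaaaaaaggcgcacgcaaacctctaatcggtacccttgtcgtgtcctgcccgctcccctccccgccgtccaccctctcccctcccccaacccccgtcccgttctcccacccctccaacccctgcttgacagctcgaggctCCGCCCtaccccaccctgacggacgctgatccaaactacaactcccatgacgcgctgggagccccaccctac
Opa1: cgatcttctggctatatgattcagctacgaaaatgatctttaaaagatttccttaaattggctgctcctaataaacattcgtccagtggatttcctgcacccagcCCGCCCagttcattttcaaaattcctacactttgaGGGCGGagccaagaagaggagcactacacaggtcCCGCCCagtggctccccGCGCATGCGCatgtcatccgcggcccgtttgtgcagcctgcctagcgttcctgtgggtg
Dnm1l: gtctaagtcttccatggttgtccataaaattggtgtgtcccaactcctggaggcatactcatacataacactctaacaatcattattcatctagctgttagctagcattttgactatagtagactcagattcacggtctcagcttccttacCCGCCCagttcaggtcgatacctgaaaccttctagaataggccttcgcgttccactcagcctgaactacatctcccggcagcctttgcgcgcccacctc
Pink1: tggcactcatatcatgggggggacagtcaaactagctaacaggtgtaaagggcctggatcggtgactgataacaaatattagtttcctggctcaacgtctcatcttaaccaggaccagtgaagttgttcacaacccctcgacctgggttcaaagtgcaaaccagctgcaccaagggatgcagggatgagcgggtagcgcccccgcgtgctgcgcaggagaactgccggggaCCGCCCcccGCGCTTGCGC
The motifs were searched on both strands. GGGCGG, the GC box read by SP factors, which appears as its reverse complement where it lies on the other strand, is the capital stretch 72 bases before the start of Mfn2 and 99 bases before that of Dnm1l, and stands at 145, 110 and 76 bases before that of Opa1 and at 19 bases before that of Pink1. GCGCA followed by any base and GCGC, the motif of NRF1, a regulator of nuclear genes for mitochondrial proteins, is the capital stretch 59 bases before the start of Opa1 and 10 bases before that of Pink1. None of these printed matches overlaps another. The 7 genes had 12 such windows, some of which overlap within a gene, and of these 10, from all 7 genes, held the GC box and 2 the NRF1 motif, against 32.7% and 3.74% of 32851 mouse windows of the same length. The windows without the GC box were those of other starts of Mfn2, and another start of Dnm1l had the box 16 bases before it. CCGGAAG, read by ETS factors, was in 2 windows, those of Mfn1 and Fis1, against 6.91% of all windows. AAGGTCA, TGACGTCA and TATAAA were in none of the 12, against 4.08%, 1.55% and 12.4% of all windows.

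Clpp, the targeted gene, had no overlap between genotypes, with a highest knockout value of 3.99 and a lowest wild-type value of 5.88, in testis. Array medians over all 45141 probe sets were 3.24 to 3.38, and precision is limited by the 3 arrays per group. Tissue labels were checked by the median of each tissue's defining markers. It was 12.75 to 12.91 on liver arrays for 6 hepatocyte genes, 10.18 to 10.75 on brain arrays for 5 neuron genes, 13.07 to 13.16 on muscle arrays for 7 fast fibre genes and 11.29 to 12.90 on heart arrays for 5 cardiomyocyte genes, and each was at most 3.73 on the arrays of the other tissues. Sperm markers (10 genes) had a median of 11.59 to 12.24 on wild-type testis arrays. Wild-type brain replicate 3 had the lowest neuron median of the brain arrays, 10.18. Its median for 4 glia genes was 7.66, against 8.48 to 8.69 on the other brain arrays. A pair of wild-type arrays stood apart by markers of another tissue. Testis replicate 3 had a median of 10.71 for 3 epididymis genes, against 2.83 and 2.82 on the other wild-type testis arrays. Muscle replicate 1 had 5.81 for the sperm markers, against 2.78 to 2.97 on the other muscle arrays. Leaving these arrays out moved the wild-type testis means of the members by at most 0.12 and the wild-type muscle means by at most 0.09, and calls that changed without them are named beside the results.

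In wild-type mice the members differed by tissue, and 6 of the 7 had their lowest mean in testis or liver, with Mfn2 lowest in brain. Of 70 tests of a member between a pair of wild-type tissues, limma called 56 at an adjusted p below 0.05, where 57.7% of the tests of all genes over the 10 pairs were called (35.9% to 69.1% in a pair). Without wild-type testis replicate 3 it called 54, losing Mfn2 between testis and liver and Mff between testis and brain, and without wild-type muscle replicate 1 it called 56. The levels that follow are log2 means of 3 wild-type arrays on the brightest probe set, and the p-values for neighbours in an order are limma's, adjusted over all genes. Arrays were also centred on the median of their 17097 gene values, which is not the median over all probe sets given above. This centring moved the median of all genes by up to 0.60 between wild-type tissues, so small differences between tissues depend on the scaling.

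Both mitofusins had their highest mean in heart. Mfn1 averaged 10.07 in heart, 9.38 in muscle, 7.96 in brain, 7.64 in testis and 7.30 in liver. Heart exceeded muscle (adjusted p = 0.00201) and muscle exceeded brain (adjusted p = 7.19e-08), whereas brain and testis (adjusted p = 0.102) and testis and liver (adjusted p = 0.0879) were not called. With the replicate block both were called (adjusted p = 0.0135 and 0.0101), and testis also lay below brain after median centring (adjusted p = 0.0165), after quantile normalization (0.012), with the mean of all probe sets (0.0029) and without wild-type brain replicate 3 (0.0166). Mfn2 averaged 10.57 in heart, 10.36 in muscle, 8.57 in testis, 8.20 in liver and 7.91 in brain. Heart and muscle were not called (adjusted p = 0.383), and muscle exceeded testis (adjusted p = 2.11e-10). Testis lay 0.37 above liver (adjusted p = 0.0495), but 0.23 below it after median centring, and without wild-type testis replicate 3 the call was lost (adjusted p = 0.0899). Liver and brain were not called (adjusted p = 0.129), but were after median centring (0.71, adjusted p = 0.000261) and with the mean of all probe sets (0.21, adjusted p = 0.0398). The mean of all probe sets includes a dim probe set for Mfn1 and for Mfn2, with means of 3.07 and 2.59 over the 30 arrays. Opa1 had the widest span of the members over the 5 tissues, 3.38 between heart and testis. It averaged 9.60 in heart, 9.24 in brain, 9.07 in muscle, 7.71 in liver and 6.22 in testis, and of these neighbours only brain and muscle were not called (adjusted p = 0.182). After quantile normalization brain and muscle were called (adjusted p = 0.011) and heart and brain were not (adjusted p = 0.051).

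The fission genes followed other orders. Dnm1l averaged 9.44 in brain, 9.05 in heart, 8.55 in muscle, 7.68 in liver and 7.004 in testis, and every neighbour in this order was called, with the largest adjusted p 0.0156 between brain and heart. That call was lost after median centring (difference 0.12, adjusted p = 0.444), without wild-type heart replicate 1 (0.25, adjusted p = 0.137) and without wild-type brain replicate 3 (0.35, adjusted p = 0.0559). The call between heart and muscle was lost with the mean of all probe sets (muscle minus heart −0.03, adjusted p = 0.859) and without wild-type heart replicate 3 (−0.35, adjusted p = 0.0563). The mean of all probe sets includes dim probe sets of Dnm1l, with means of 2.47 and 3.03 over the 30 arrays. Fis1 averaged 9.26 in muscle, 9.14 in brain and 9.05 in heart, which were not called from their neighbours (adjusted p = 0.372 and 0.483), then 8.49 in liver and 7.62 in testis, which were (adjusted p = 0.000127 between heart and liver and 1.02e-07 between liver and testis). Mff, the receptor that recruits Dnm1l, averaged 9.26 in brain, 9.24 in muscle, 8.98 in heart and 8.91 in testis, with no neighbours called (adjusted p = 0.904, 0.223 and 0.728), and 6.57 in liver, 2.34 below testis (adjusted p = 4.56e-13). After median centring muscle lay 0.38 above brain for Mff (adjusted p = 0.0334) and 0.53 above it for Fis1 (adjusted p = 0.000118), and testis lay below heart for Mff (−0.52, adjusted p = 0.0049). The low level of Mff in liver was the largest step between neighbours of any member. Pink1 averaged 10.79 in heart, 10.72 in muscle, 9.95 in brain, 9.19 in liver and 8.74 in testis. Heart and muscle were not called (adjusted p = 0.742), and each later neighbour was (adjusted p = 1.48e-05, 1.73e-05 and 0.00368).

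**Figure D1:**
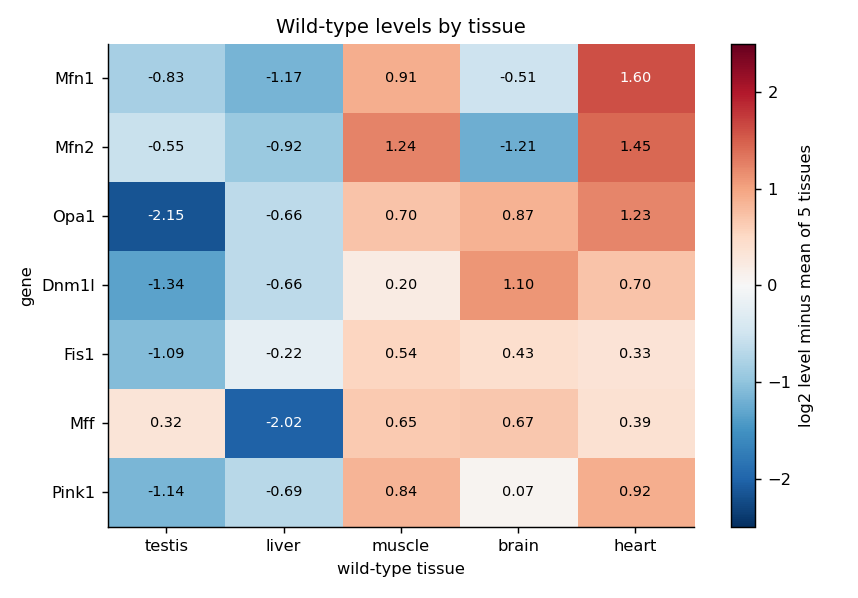
Wild-type level of each gene by tissue, as the log2 mean of 3 arrays minus that gene's mean over the 5 tissues. Opa1 is lowest in testis (−2.15), Mff in liver (−2.02) and Mfn2 in brain (−1.21), and Mfn1, Mfn2, Opa1 and Pink1 are highest in heart.

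For Mfn1, Opa1 and Dnm1l the order of tissues depended on the probe set. On the second brightest probe set of Mfn1, with a mean of 8.24 over the 30 arrays against 8.44 for the brightest, wild-type testis was lowest at 6.98. There it lay below liver at 7.39 (difference −0.41, adjusted p = 0.00206 in a limma fit of all 28898 probe sets with 1 symbol) and below brain at 7.83 (difference −0.85, adjusted p = 1.4e-07). On the second brightest probe set of Opa1, whose suffix marks probes shared by several transcripts of a gene, wild-type liver was highest at 7.73 and wild-type brain lowest at 3.89. The brain value lies near the array medians, so the size of that gap is poorly measured, whereas on the brightest probe set liver lay below brain. On the second brightest probe set of Dnm1l wild-type testis stood at 8.53, beside 8.55 in brain (difference −0.02, adjusted p = 0.915) and above heart at 7.86 (difference 0.67, adjusted p = 0.000305), whereas on the brightest probe set testis was the lowest of the 5 tissues. Which transcripts the probe sets match was not tested.

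In knockout testis, Opa1, Dnm1l and Fis1 rose and Mfn2, Pink1 and Mff fell on their brightest probe sets. limma called 6 of the 7 at an adjusted p below 0.05, 3 higher and 3 lower, where 56.2% of all genes were called, 32.8% higher and 23.4% lower. Of the 5 other probe sets of members with a mean of at least 5, limma called 1 higher (Mfn1) and 3 lower (Opa1, Dnm1l and Pink1), so the directions of Opa1 and Dnm1l given by the brightest probe sets did not hold on their second brightest. The share of members called is therefore to be read against a testis in which more genes were called than not. The 56.2% covers genes of every level, of which 5168 had a mean of 6 or more, as all 7 members did. No share over genes as bright as the members is given, so an excess among the members is not shown. The median difference was −0.18 for the members, against 0.02 for all genes and 0.69 for the 5168 genes whose mean level was 6 or more. The levels of cell type markers moved with genotype. The median level of the sperm markers was 6.55 to 7.77 on knockout arrays, against 11.59 to 12.24 on wild-type arrays, and 10 of 10 fell. That of 8 Sertoli genes was 8.41 to 8.77 on knockout arrays, against 6.35 to 6.66 on wild-type arrays (8 of 8 rose), that of 6 Leydig genes 9.37 to 9.89, against 7.63 to 7.94 (6 of 6 rose), and that of 8 macrophage genes 5.75 to 6.11, against 4.37 to 4.86 (7 of 8 rose). Of these lists, each gene was above 4 on at least 1 testis array of each genotype, except 1 Sertoli gene on wild-type arrays and 1 macrophage gene on knockout and 2 on wild-type arrays. The part of cell makeup in the members' differences was not tested, and in bulk tissue fewer cells of a type and less RNA per cell cannot be told apart.

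Mfn2, the mitofusin that also tethers mitochondria to the endoplasmic reticulum, had log2 levels of 6.57, 6.84 and 7.45 on knockout testis arrays, against 8.68, 8.45 and 8.57 on wild-type testis arrays. All 3 knockout arrays lay below the lowest wild-type array, and they spread more widely than the wild-type arrays. The difference was −1.61 ± 0.16 (SE, n = 3 per genotype; 95% confidence interval −1.95 to −1.28; limma adjusted p = 3.62e-09), a 3.06-fold lower level in knockout testis. Its other probe set was dim, with a mean of 2.59, and gave no second measurement. Mfn1 had 7.52, 7.42 and 7.44 on knockout arrays, against 7.79, 7.53 and 7.58 on wild-type arrays. The groups did not overlap but lay close, and the difference of −0.18 ± 0.17 was not called (interval −0.53 to 0.18; limma adjusted p = 0.422). On the second brightest probe set of Mfn1, whose suffix marks probes that may match other genes, the values were 7.19, 7.27 and 7.40 on knockout arrays, against 7.02, 7.04 and 6.88 on wild-type arrays. There the knockout arrays were the higher ones, by 0.31 ± 0.11 (limma adjusted p = 0.0226 over all probe sets, of which 50.5% were called). Without wild-type testis replicate 3 that call was lost (0.26, adjusted p = 0.0932). The sign of the difference for Mfn1 in testis thus differed between its probe sets.

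Opa1, the inner membrane fusion GTPase, had log2 levels of 7.31, 7.51 and 7.34 on knockout testis arrays, against 6.07, 6.31 and 6.28 on wild-type testis arrays. The knockout arrays were all higher, and the spread within each genotype was small beside the gap. The difference was 1.17 ± 0.11 (interval 0.95 to 1.39; limma adjusted p = 7.24e-10), a 2.24-fold higher level in knockout testis. The second brightest probe set of Opa1 moved the other way. It had 4.94, 5.21 and 5.33 on knockout arrays, against 6.05, 5.94 and 5.57 on wild-type arrays, a difference of −0.69 ± 0.16 (limma adjusted p = 0.000736 over all probe sets). The groups again did not overlap, so both probe sets were called, in opposite directions. The third probe set, with a mean of 4.78, differed by 0.01 in testis (limma adjusted p = 0.962).

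Dnm1l, the fission GTPase, had log2 levels of 7.85, 8.11 and 8.09 on knockout testis arrays, against 6.82, 7.05 and 7.14 on wild-type testis arrays. The lowest knockout array stood above the highest wild-type array. The difference was 1.01 ± 0.14 (interval 0.73 to 1.29; limma adjusted p = 4.35e-07), a 2.02-fold higher level in knockout testis. Its second brightest probe set had 7.78, 7.75 and 7.82 on knockout arrays, against 8.56, 8.69 and 8.34 on wild-type arrays. There the knockout arrays were all lower, by −0.75 ± 0.15 as knockout minus wild type (limma adjusted p = 0.000117 over all probe sets). With the mean of all probe sets of a gene in place of the brightest, neither gene was called in testis. The differences were 0.16 for Opa1 (limma adjusted p = 0.213) and 0.10 for Dnm1l (adjusted p = 0.400). The value of Dnm1l includes dim probe sets, with means of 2.47 and 3.03 over the 30 arrays and testis differences of 0.03 and 0.09. That of Opa1 includes the probe set with a mean of 4.78, which differed by 0.01 in testis. The direction of Opa1 and of Dnm1l in knockout testis thus depended on the probe set.

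**Figure D2:**
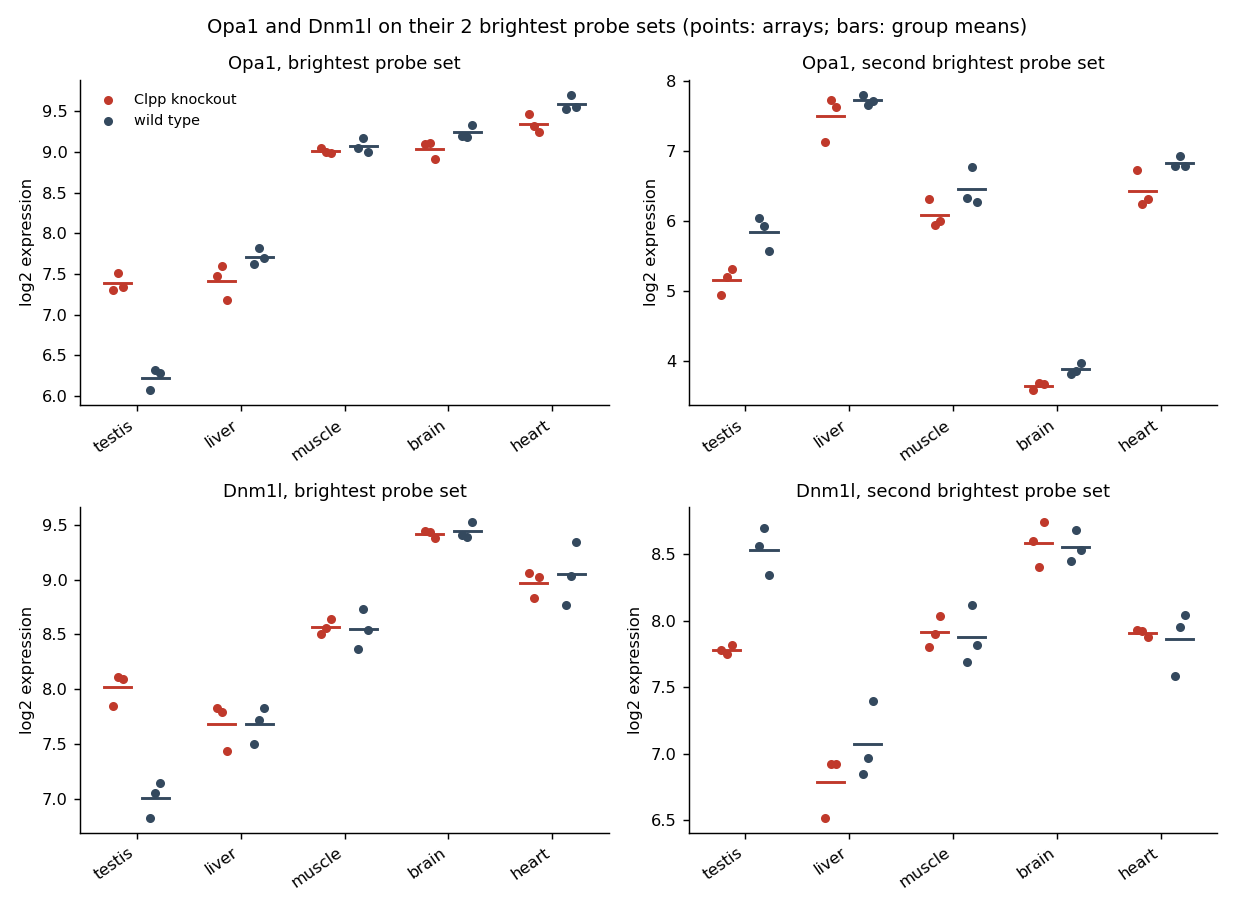
Log2 expression of Opa1 and Dnm1l on their brightest and second brightest probe sets, by tissue, with knockout arrays left of wild-type arrays, points for arrays and bars for group means. In testis the knockout arrays lie above the wild-type arrays on the brightest probe sets and below them on the second brightest.

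Pink1, the mitophagy kinase, had log2 levels of 8.19, 8.12 and 8.13 on knockout testis arrays, against 8.73, 8.66 and 8.82 on wild-type testis arrays. The knockout arrays were tightly grouped and all lower, and the difference was −0.59 ± 0.13 (limma adjusted p = 0.000379). Its second probe set, whose probes may match other genes, gave −0.58 ± 0.12 (limma adjusted p = 0.000144 over all probe sets), so that Pink1 was the member with 2 bright probe sets called in the same direction. Mff had 8.10, 8.46 and 8.55 on knockout arrays, against 8.94, 9.02 and 8.77 on wild-type arrays. The knockout arrays were all lower, by −0.54 ± 0.16 as knockout minus wild type (limma adjusted p = 0.00451), and Mff had no other probe set. Fis1 had 7.91, 7.88 and 7.92 on knockout arrays, against 7.73, 7.29 and 7.85 on wild-type arrays. The knockout arrays were all higher, but the highest wild-type array came close to the lowest knockout array, and the difference was 0.28 ± 0.11 (limma adjusted p = 0.0345). Without wild-type replicate 2 it was 0.11 (adjusted p = 0.380), without knockout replicate 1, 2 or 3 the call was also lost (adjusted p = 0.0693, 0.0594 and 0.0753), and its other probe set gave 0.04 (adjusted p = 0.831).

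All 7 members had testis arrays that did not overlap between genotypes, as did 63.5% of all genes. Leaving out wild-type testis replicate 3, the array with epididymis genes, left the same 6 members called, with differences of −1.61 for Mfn2, 1.20 for Opa1, 1.08 for Dnm1l, −0.55 for Pink1, −0.61 for Mff and 0.39 for Fis1, while Mfn1 stood at −0.20 and was not called.

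**Figure D3:**
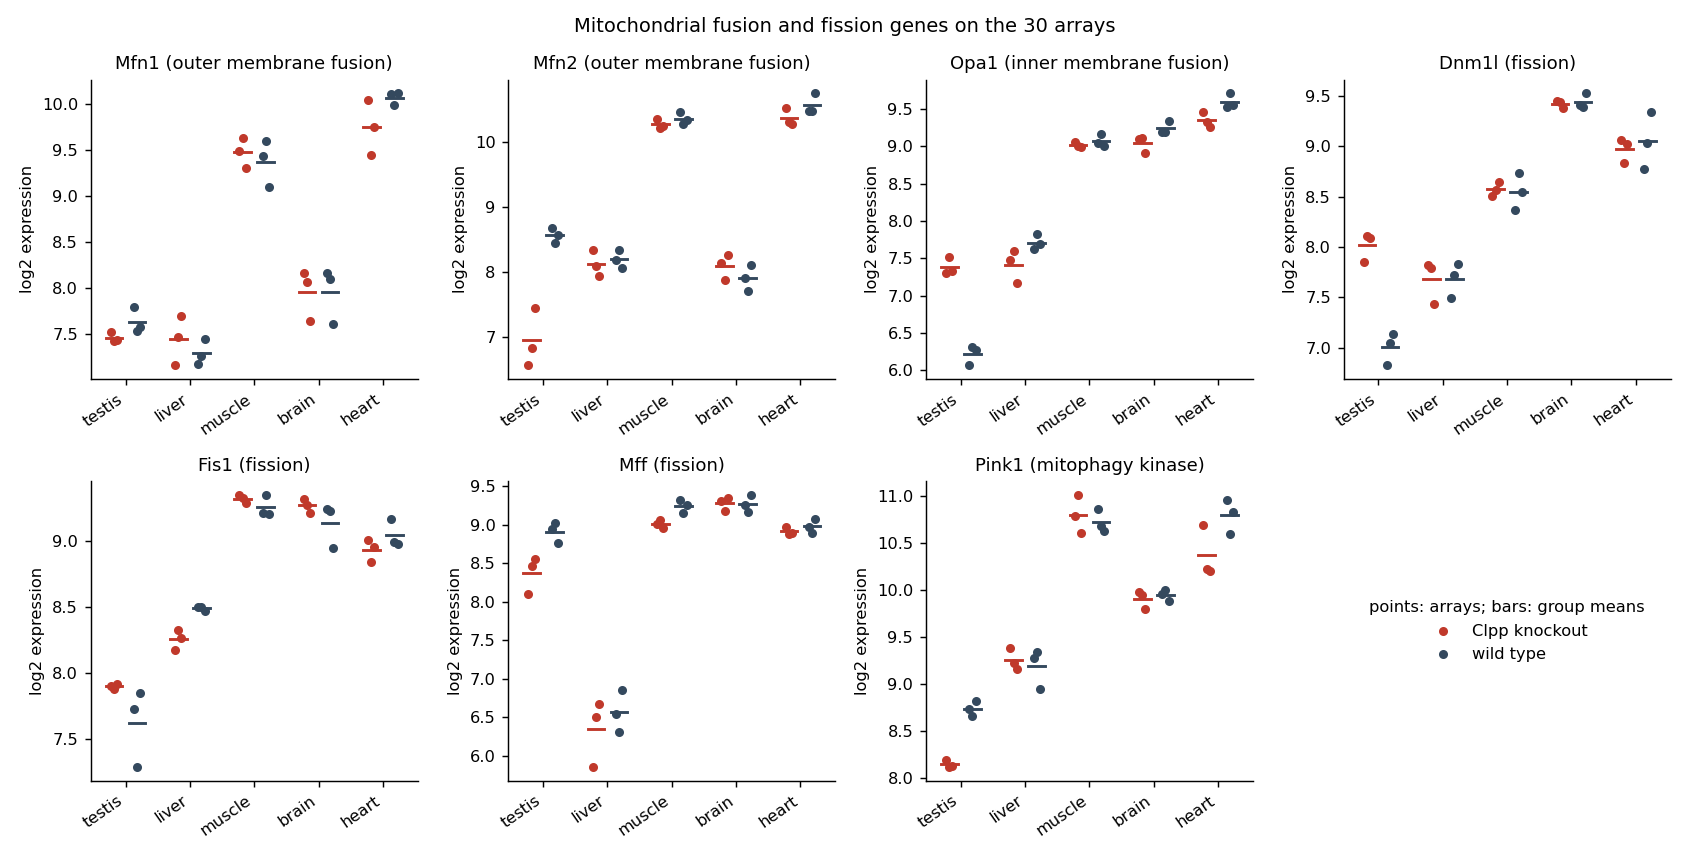
Log2 expression of the 7 genes on each of the 30 arrays, by tissue, with knockout arrays left of wild-type arrays, points for arrays and bars for group means. The genotypes separate most widely in testis, for Mfn2 (6.57 to 7.45 on knockout arrays, 8.45 to 8.68 on wild-type arrays) and Opa1 (7.31 to 7.51 and 6.07 to 6.31).

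Outside testis no member was called in a tissue on its brightest probe set. In liver, muscle, brain and heart limma called 0 of 28 member tests, with 4 at an unadjusted p below 0.05 and a smallest adjusted p of 0.0946. All genes were called at 2.42% in liver, 1.54% in muscle, 0.415% in brain and 2.18% in heart. The 28 differences lay between −0.42 and 0.19, 17 below 0 and 11 above, and the lowest and highest bounds of their 95% intervals were −0.70 and 0.52. These values are from the brightest probe sets. None of the 8 macrophage genes was called in any of these tissues alone. Their median levels were 6.19 to 6.98 on knockout heart arrays, against 5.70 to 6.04 on wild-type heart arrays. On brain arrays they were 5.45 to 5.57 for knockout, against 4.97 to 5.38 for wild type. The genotypes overlapped on liver arrays (5.28 to 5.74 for knockout, 4.86 to 5.59 for wild type). They also overlapped on muscle arrays (4.32 to 4.67 for knockout, 4.07 to 4.85 for wild type). In the mean of the 4 tissues 1 of the 8 was called higher, as were 5 of 7 slow fibre genes. All genes were called at 4.02% in that mean. The part of these markers in the differences was not tested. The knockout and wild-type arrays did not overlap for 2 members in liver (Opa1 and Fis1, both lower in knockout), 1 in muscle (Mff, lower), 1 in brain (Opa1, lower) and 1 in heart (Opa1, lower), where 16.7%, 19.4%, 15.8% and 19.3% of all genes did not overlap.

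Opa1 was the member with lower knockout means in all of these tissues on both of its brighter probe sets. On the brightest, liver had 7.48, 7.60 and 7.17 on knockout arrays, against 7.62, 7.83 and 7.69 on wild-type arrays (difference −0.30, adjusted p = 0.174). Brain had 9.10, 9.11 and 8.91 on knockout arrays, against 9.20, 9.19 and 9.34 on wild-type arrays (difference −0.20, adjusted p = 0.715). Heart had 9.47, 9.32 and 9.25 on knockout arrays, against 9.53, 9.71 and 9.55 on wild-type arrays (difference −0.25, adjusted p = 0.275). In these tissues the knockout arrays were all lower, by less than 0.3 on average. Muscle, at 9.05, 9.01 and 8.99 on knockout arrays, against 9.05, 9.17 and 9.001 on wild-type arrays, overlapped (difference −0.06, adjusted p = 0.922). Of all genes, 9.77% had a lower knockout mean in each of the 4 tissues.

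Over the mean of the 4 tissues Opa1 differed by −0.20 ± 0.05 (interval −0.31 to −0.09; limma adjusted p = 0.0322), and it was the 1 member called, where 4.02% of all genes were called and 2.55% were called lower. With the replicate number as a block the adjusted p was 0.0638. Leaving out 1 array also ended the call for 10 of the 24 arrays, at adjusted p up to 0.0672. These were knockout replicate 3 of liver, replicates 2 and 3 of muscle and heart and replicate 3 of brain, and wild-type replicate 2 of liver, muscle and heart and replicate 3 of brain. Without wild-type muscle replicate 1 the difference was −0.20 and stayed called (adjusted p = 0.0454). The mean difference on the second brightest probe set of Opa1 was −0.31 ± 0.08 (limma adjusted p = 0.0308 over all probe sets, of which 3.98% were called), with −0.23 in liver, −0.37 in muscle, −0.23 in brain and −0.40 in heart. On the third, with a mean of 4.78, it was −0.23 and not called (adjusted p = 0.184), with 0.04 in liver, −0.84 in muscle, 0.11 in brain and −0.21 in heart. The other 6 members lay between −0.13 and −0.02 in this mean and were not called.

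On the brightest probe sets, the difference of largest size outside testis was that of Pink1 in heart. It had 10.68, 10.22 and 10.20 on knockout heart arrays, against 10.96, 10.59 and 10.83 on wild-type heart arrays. Knockout replicate 1 lay within the range of the wild-type arrays, and the difference of −0.42 ± 0.13 was not called (limma adjusted p = 0.0946). Without that array it was −0.58 and was called (adjusted p = 0.00777). The second probe set of Pink1 gave −0.23 in heart (limma adjusted p = 0.427). The median of 5 cardiomyocyte genes was 11.29 on knockout replicate 1 and 12.84 and 12.90 on the other knockout heart arrays. It was 11.37 to 11.51 on wild-type heart arrays. Gene by gene, limma called 0 of the 5 in heart, where 2.18% of all genes were called, and their median difference was −0.11. Of the 5, 2 had an unadjusted p below 0.05. The part of these genes in the Pink1 difference was not tested. In muscle, where 7 of 7 slow fibre markers rose (median level 10.45 to 10.87 on knockout arrays, against 4.51 to 8.10 on wild-type arrays), the members differed by −0.23 for Mff to 0.10 for Mfn1, and 0 of 7 were called, with 0 at an unadjusted p below 0.05. Leaving out wild-type muscle replicate 1 also gave 0.

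**Figure D4:**
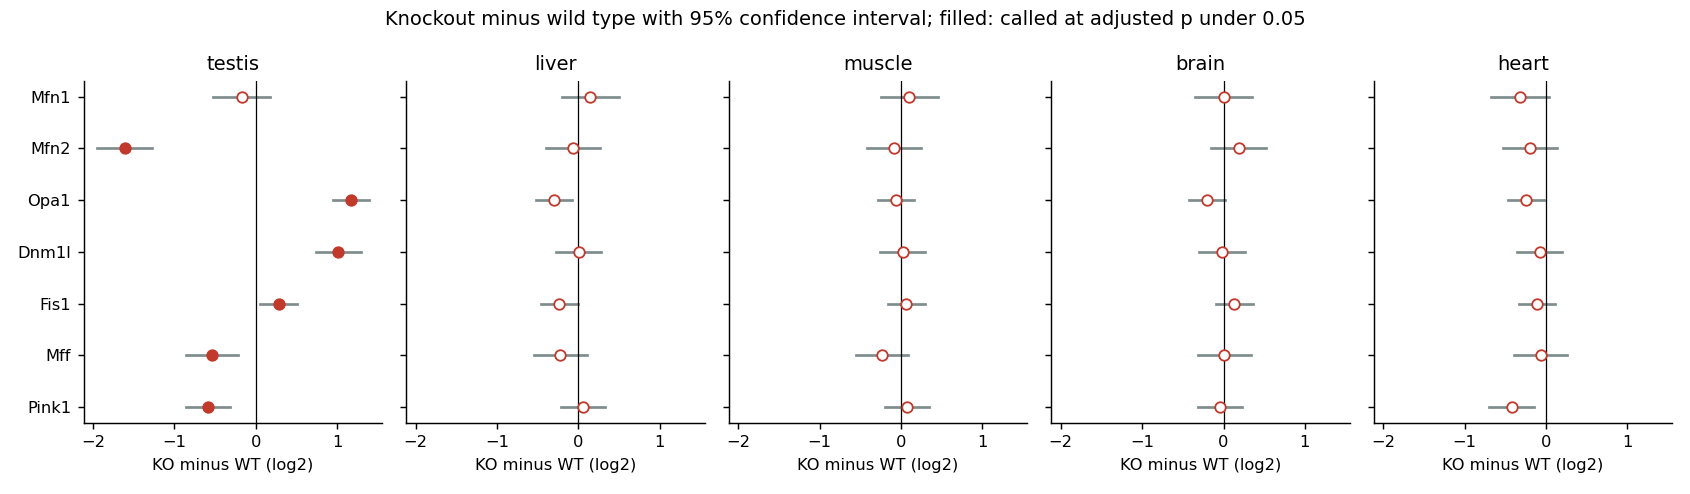
Knockout minus wild type on the log2 scale for each gene and tissue, with 95% confidence intervals from limma; filled points were called at an adjusted p under 0.05. Filled points occur only in testis, where Mfn2 stands at −1.61 and Opa1 at 1.17.

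Whether the knockout difference in testis differed from that in the other tissues was tested directly. The testis difference minus the mean difference of the 4 other tissues was called for 6 of 7 members, where 55.5% of all genes were called. It was 1.37 ± 0.12 for Opa1 (limma adjusted p = 3.81e-10) and 1.03 ± 0.15 for Dnm1l (adjusted p = 2.04e-06). For Mfn2 it was −1.57 ± 0.18 (limma adjusted p = 4.51e-08) and for Pink1 −0.51 ± 0.15 (adjusted p = 0.00454). Fis1 at 0.32 (adjusted p = 0.0322) and Mff at −0.41 (adjusted p = 0.0485) were near the threshold, and Mfn1 at −0.16 was not called (adjusted p = 0.522). It was −0.38 on the second brightest probe set for Opa1 (adjusted p = 0.0832) and −0.71 for Dnm1l (adjusted p = 0.000782), again of opposite sign to the brightest. Without wild-type testis replicate 3 that of Opa1 was called (−0.52, adjusted p = 0.0245). On the brightest probe sets the same 6 members were called without wild-type testis replicate 3 and without wild-type muscle replicate 1. An F test over all 5 tissues called 5 of 7 members, where 52.3% of all genes were called. Fis1 stood at the threshold in it (adjusted p = 0.0499; 0.0594 without wild-type muscle replicate 1, which left 4 called), and Mff (adjusted p = 0.231) and Mfn1 (adjusted p = 0.386) were not called.

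The wider pathway was described by 3 lists. In testis each of them held genes that rose and genes that fell, and 48 of the 59 genes measured were called, 29 higher and 19 lower, where 56.2% of all genes were called, 32.8% higher and 23.4% lower. Those shares cover genes of every level, dim ones included, so an excess of the lists over genes of like level is not shown. Without wild-type testis replicate 3, 47 of these 48 were called, all but Fkbp8, a mitophagy receptor of the outer membrane (−0.31, adjusted p = 0.199). Of 26 listed partners 25 were measured, of which 8 rose, 11 fell and 6 were not called (median −0.14, against 0.02 over all genes). Mtfr1, a regulator of fission, fell by 3.02 ± 0.19 on the log2 scale (limma adjusted p = 5.14e-13). Sh3glb1, or endophilin B1, which binds curved membranes, fell by 1.88 ± 0.20 (adjusted p = 6.4e-09), and Chchd3, a subunit of the MICOS complex at crista junctions, fell by 1.75 ± 0.10 (adjusted p = 6.1e-14). The adaptors that recruit Dnm1l beside Mff, named here after their values were seen, moved apart, with Mief1 at −0.42 (adjusted p = 0.00124) and Mief2 at 1.16 (adjusted p = 1.39e-07).

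Of 15 proteases, ligases and related proteins that act on Opa1, Pink1 or the mitofusins, all were measured, and 9 rose, 2 fell and 4 were not called (median 0.58). Lonp1, an ATP-dependent protease of the matrix, rose by 1.81 ± 0.12 (limma adjusted p = 1.81e-12). Those that fell were Mul1, an outer membrane ubiquitin ligase with Mfn2 among its substrates, which fell by 1.76 ± 0.14 (limma adjusted p = 3.27e-11), and Yme1l1, an inner membrane protease that cleaves Opa1, which fell by 1.42 ± 0.13 (adjusted p = 1.06e-09). Oma1, the other Opa1 protease, named here after its value was seen, rose by 0.99 (adjusted p = 3.19e-05). Of 25 mitophagy genes 19 were measured, of which 12 rose, 6 fell and 1 was not called (median 0.65). Fundc1 and Bnip3, receptors that link mitochondria to autophagosomes, rose by 1.704 ± 0.22 (limma adjusted p = 2.07e-07) and 1.601 ± 0.15 (adjusted p = 1.37e-09), and Tbk1, a kinase of autophagy receptors, by 1.46 ± 0.13 (adjusted p = 4.07e-10). The members of these lists that were not measured are not analysed here. The medians of the protease and mitophagy lists lay near the 0.69 of genes whose mean level was 6 or more, and the cell type markers given above moved in the same contrast, with their part not tested.

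**Figure D5:**
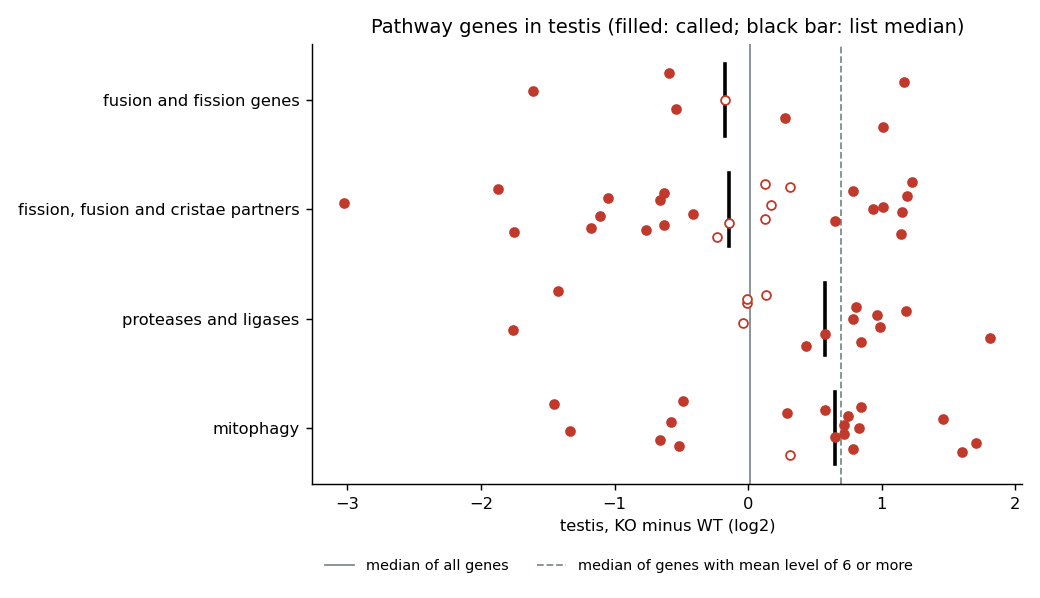
Knockout minus wild type in testis on the log2 scale for the 7 genes and the 3 pathway lists; filled points were called, black bars are list medians, and grey lines mark the median of all genes (0.02) and of genes whose mean level was 6 or more (0.69). Points of every list lie on both sides of 0.

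Outside testis few pathway genes were called. Over the 59 genes measured on the 3 lists, limma called 2 in liver (Samm50 and Gabarapl2), 1 in heart (Mul1), and 0 in muscle and brain, where 2 and 5 had an unadjusted p below 0.05. All genes were called at 2.42% in liver, 2.18% in heart, 1.54% in muscle and 0.415% in brain, so these few calls are near the background. Mul1 fell by 0.85 ± 0.14 in heart (limma adjusted p = 0.000467), as it had in testis. The median of the macrophage genes lay higher on all knockout heart arrays, at the levels given above, and its part in this difference was not tested. In liver Samm50, which builds outer membrane barrels, rose by 0.38 ± 0.10 (limma adjusted p = 0.0483) and Gabarapl2, an autophagosome protein, fell by 0.54 ± 0.15 (adjusted p = 0.0484). In the mean of the 4 tissues Inf2, a formin that assembles actin at fission sites, fell by 0.43 ± 0.11 (limma adjusted p = 0.034), and Yme1l1 fell by 0.26 ± 0.07 (adjusted p = 0.0261). They were the 2 called of 59, where 4.02% of all genes were called. Without wild-type muscle replicate 1 both stayed called (adjusted p = 0.0493 and 0.0489), and Tomm70a, an import receptor of the outer membrane, was called too (−0.34, adjusted p = 0.0245).

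The genes whose levels ran closest to each member over the 30 arrays were sought among 5167 genes with a mean of at least 6, as a description of arrays that fall into 5 tissues. For Mfn1 they were Ndufb5 (Pearson r = 0.983) and Cox5a (r = 0.978), subunits of respiratory complexes, and for Mfn2 Pdk2 (r = 0.967), a pyruvate dehydrogenase kinase, and Art1 (r = 0.952). For Opa1 they were Ank (r = 0.975) and Mat2b (r = 0.974), and for Dnm1l Septin7 (r = 0.969) and Atp1b1 (r = 0.957), a sodium pump subunit. Fis1 ran closest to Ppm1l (r = 0.976) and Map7d1 (r = 0.959), Mff to Tspan3 (r = 0.961) and Ralgapa1 (r = 0.953), and Pink1 to Samd4 (r = 0.967) and Lrrfip1 (r = 0.963). Without both wild-type arrays that stood apart, 11 of these 14 genes were again among the closest pair of their member, and the exceptions were Art1, Mat2b and Map7d1.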

How the data were processed

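RNA of 5 tissues was labelled from total RNA for Affymetrix 3′ expression arrays, 1 array per sample. The deposited values are log2 expression per probe set, made by the authors with RMA in R 2.14.0, per the submitters' processing notes. Whether all 30 arrays were processed together is not stated. Of 45141 probe sets, 28898 had exactly 1 gene symbol in the annotation supplied with the series, which gave 17097 genes by the probe set of the highest mean. Of these, 16937 matched a RefSeq gene (GRCm38.p6) by Entrez identifier. A limma 3.58.1 model (R 4.3.3) with 1 mean for each of the 10 groups, leaving 20 degrees of freedom for the spread, gave all differences, SEs and 95% intervals. Tests were two-sided, with Benjamini-Hochberg adjustment over all genes within a contrast and calls at an adjusted p below 0.05. Other probe sets came from the same fit over 28898 probe sets. The fit was tested on simulated data in which 200 genes with a mean of at least 6 were changed by known amounts in each tissue. In the real testis 56.2% of all genes were called, so the simulated testis values that follow do not carry over to it. A change of 0.5 on the log2 scale was recovered for 28% to 37% of changed genes, by tissue, and a change of 1 for 85% to 97%. Of the calls, 2.38% in brain to 7.35% in testis were false. A member that was not called may thus still differ by a small amount. Genes, lists and the naming rule (up to 3 called genes of largest difference per list and tissue, and the 2 nearest genes per member) were chosen with earlier results of these data known. Samples were treated as unpaired, because the labels do not say that a replicate number marks an animal. Correlations of same-numbered deviations lay between −0.28 and 0.40, and no tissue had all 3 above 0.1. In muscle they were 0.079, 0.092 and 0.399, and so few values cannot exclude pairing. The series files name no genome build, and the promoter intervals are on GRCm38.p6. The windows shown for Opa1 and Dnm1l overlap the annotated gene, whose outermost start is at 29579281 for Opa1 and 16359038 for Dnm1l.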

Additional observations from a re-analysis of the deposited data

Results flagged for a closer look

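For 6 of the 7 genes the knockout effect in testis differed from the mean effect in liver, muscle, brain and heart, by a limma contrast of the difference itself with adjustment over all genes, and 55.5% of all genes did so too. The differences of effects on the log2 scale were 1.37 for Opa1, 1.03 for Dnm1l, 0.32 for Fis1, −0.41 for Mff, −0.51 for Pink1 and −1.57 for Mfn2. Those of Opa1 and Dnm1l changed sign on the second brightest probe set. That of Mff (adjusted p = 0.0485) was no longer called for 22 of the 30 arrays left out in turn, with the highest adjusted p, 0.219, without knockout testis replicate 1 (difference −0.278). That of Fis1 was no longer called without knockout testis replicate 1 (adjusted p = 0.0596), 2 (0.052) or 3 (0.064) or without wild-type testis replicate 2 (0.266).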

How the results depend on the processing

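Alternatives were another probe set rule, scaling, prior, block, filter or set of samples, and each array left out in turn. The probe set mattered most. On the second brightest probe set (for Opa1 also that of the highest SD) the testis difference and the testis minus somatic difference were −0.694 and −0.384 for Opa1, −0.751 and −0.710 for Dnm1l and 0.306 and 0.341 for Mfn1, each of opposite sign to the brightest. Between wild-type tissues the highest-SD probe set of Opa1 turned testis minus brain to 1.967, liver minus muscle to 1.267, liver minus brain to 3.847, liver minus heart to 0.897 and muscle minus brain to 2.580, with a brain level near the array medians. The mean of all probe sets turned Opa1 liver minus brain to 0.958, Opa1 muscle minus brain to 1.267 and Dnm1l testis minus liver to 0.213. Median centring turned Mfn2 testis minus liver to −0.233 and Mff muscle minus brain to 0.384. The cause was not tested.

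With the mean of all probe sets, dim ones included, 3 members were called in testis in place of 6 and 1 in muscle in place of 0 (Opa1, −0.424, adjusted p = 0.0398). Members whose effect differed between tissues were 3 in place of 5 with that mean or the highest-SD probe set. The somatic mean call of Opa1 was lost (0 in place of 1) with the replicate block, median centring (adjusted p = 0.0682) and quantile normalization (adjusted p = 0.0776). The replicate block changed 1 of 49 knockout results of the members, this call, and gave 58 wild-type calls in place of 56. Fis1 in testis was not called after median centring (adjusted p = 0.0599), with testis fitted alone (0.179) or with the mean of all probe sets (0.192). Counts over all genes were 9605 in testis (6393 for genes above the median level), 413 in liver (31 fitted alone), 263 in muscle (137 with the replicate block, 15 alone), 71 in brain (41 with the block, 46 above the median level, 25 alone) and 372 in heart (83 alone). With an array left out they ranged from 8937 to 9292 in testis, 293 to 423 in liver, 125 to 277 in muscle, 34 to 158 in brain and 198 to 789 in heart. Members called were 0 in liver, muscle and brain and ranged from 5 to 6 in testis, 0 to 1 in heart (Pink1, without knockout replicate 1), 0 to 1 in the somatic mean, 4 to 6 in testis minus somatic, 4 to 5 for the difference between tissues and 54 to 56 of the 70 wild-type tests.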

Other observations

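The dimmest probe set of Opa1, with a mean of 4.78 over 30 arrays, differed in muscle, where the brighter ones were not called. It had 5.09, 4.57 and 5.35 on knockout muscle arrays, against 5.84, 5.95 and 5.74 on wild-type muscle arrays, a difference of −0.84 ± 0.19 (SE, n = 3 per genotype; limma adjusted p = 0.02 over 28898 probe sets). The knockout arrays were all lower, but without wild-type muscle replicate 1 the call was lost (−0.84, adjusted p = 0.0541; chosen after seeing the data). A dim probe set of Mfn1, with a mean of 3.07, near the array medians, had 3.52, 3.04 and 3.35 on knockout heart arrays, against 3.86, 3.82 and 4.14 on wild-type heart arrays (difference −0.64 ± 0.15, limma adjusted p = 0.027). These probe sets were chosen after their values were seen.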
